A study of Mus musculus with 15 samples.

Results

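The genes described here are 48 mouse genes that fold proteins in the endoplasmic reticulum (ER) or bring proteins into it. They were chosen by symbol, and all 48 were found among the 14801 genes of the deposited expression table. RNA had been sequenced from 5 cell populations of the bone marrow of healthy mice, separated by flow cytometry, with 3 libraries per population. The labels name the populations CMP, a name for common myeloid progenitors, CD115plusGMP, granulocyte-monocyte progenitors with the CSF1 receptor CD115 on the surface, PreNeut_Neutrophil, ProNeut_Neutrophil and Neutrophil. PreNeut_Neutrophil and ProNeut_Neutrophil are written PreNeut and ProNeut from here on. The labels name no treatment or engineered allele for any of them. They give neither strain, age, sex and sort gates, nor whether the 3 libraries of a population came from separate animals. The spread behind each p-value is therefore that of libraries and may be technical.

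Proteins bound for secretion, for the cell membrane or for granules carry a signal that the signal recognition particle reads as they leave the ribosome. They pass through the Sec61 channel, lose the signal to signal peptidase, receive N-glycans from oligosaccharyltransferase and fold with the help of chaperones and disulphide isomerases, while failed products are sent back for degradation. When unfolded protein builds up, the sensors IRE1, PERK and ATF6 raise the genes of this machinery, a programme called the unfolded protein response. Neutrophil precursors are known for making large amounts of granule proteins by this route before the mature cell leaves the marrow.

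The libraries form a pair of sets that follow the populations. CMP, CD115plusGMP and Neutrophil make up the first set, 9 libraries of 810794 to 1444403 reads in the table. PreNeut and ProNeut make up the second, 6 libraries of 7493694 to 68171606 reads. Values are log2 CPM, that is the log2 of reads scaled to a library size, as deposited. The library size implied by the values was 0.254 to 0.908 times the reads in the first set and 1.93 to 2.24 times in the second. A gene with 0 reads was at -1.31 to 0.63 in a first-set library and at -8.14 to -4.90 in one of the second set. In the first set, ND6, the mitochondrial protein gene whose strand is opposite to that of the other 12, took 69.1% to 93.3% of the reads on these 13 genes, against 0.154% to 0.230% in the second. A first-set value is therefore given as a value of the gene's locus, without the strand from which its reads came. It may not be the level of the gene's own mRNA, and this holds for low and absent counts too. Set and population cannot be told apart between the sets, so tests were made only within a set.

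The control regions of several of these genes hold the ER stress response element (ERSE), CCAAT followed after any 9 bases by CCACG, which ATF6 and XBP1 are known to bind with NF-Y. In RefSeq promoters (GRCm38.p6, 250 bases before to 50 after the start) found for 40 of the 48 genes, 7 held the ERSE on either strand, which is 17.5%. It stood in 19 of the 10843 promoters of genes in the table (0.175%). The 7 were Hspa5, Calr, Hsp90b1, Canx, Pdia6, Dnajc3 and Creld2, and Hsp90b1 held it at 2 places. The shorter ERSE-II, ATTGG followed after any 1 base by CCACG, stood in 2 of the 40 (Herpud1 and Dnajb11) and in 8 of the 10843 (0.0738%), and the element TGACGTGG in 0 of the 40 and 111 of the 10843 (1.02%). These genes were chosen for this pathway, so the shares describe the list and test nothing. The ERSE-II of Dnajb11 ends past the start and is not shown. The windows below are shown because they are the letters by which an ER stress gene is usually known. Each reads 5′ to 3′ on the strand of the gene, with both ends of the element, CCAAT and CCACG or their reverse complements ATTGG and CGTGG, in capitals. In the order printed they lie at chr2:34772005-34772063 (plus strand), chr8:84847055-84847113 (minus strand), chr10:86705618-86705676 (minus strand), chr10:86705513-86705571 (minus strand), chr11:50325780-50325838 (minus strand), chr12:17266471-17266529 (plus strand), chr14:118937807-118937865 (plus strand), chr15:88819500-88819558 (plus strand) and chr8:94386357-94386407 (plus strand), in GRCm38.p6.
Hspa5: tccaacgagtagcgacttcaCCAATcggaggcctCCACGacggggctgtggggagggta
Calr: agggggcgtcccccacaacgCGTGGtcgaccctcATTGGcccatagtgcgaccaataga
Hsp90b1, upstream site: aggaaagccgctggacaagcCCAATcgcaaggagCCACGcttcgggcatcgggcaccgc
Hsp90b1, downstream site: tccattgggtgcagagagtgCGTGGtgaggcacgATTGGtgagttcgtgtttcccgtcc
Canx: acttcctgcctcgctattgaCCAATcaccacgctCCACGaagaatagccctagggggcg
Pdia6: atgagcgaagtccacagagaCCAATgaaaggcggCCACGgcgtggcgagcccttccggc
Dnajc3: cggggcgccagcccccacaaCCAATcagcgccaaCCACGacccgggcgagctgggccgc
Creld2: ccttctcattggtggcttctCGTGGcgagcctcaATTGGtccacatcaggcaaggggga
Herpud1: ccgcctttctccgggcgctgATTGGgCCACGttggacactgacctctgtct

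Sdf2l1, the gene with the largest difference between ProNeut and PreNeut, held neither element. The 250 bases before its start, chr16:17132384-17132633 (minus strand), are shown with CCAAT and CCACG on either strand in capitals. CCACG alone stood in 28 of the 40 promoters (70%), against 50.3% of those of the table.
Sdf2l1: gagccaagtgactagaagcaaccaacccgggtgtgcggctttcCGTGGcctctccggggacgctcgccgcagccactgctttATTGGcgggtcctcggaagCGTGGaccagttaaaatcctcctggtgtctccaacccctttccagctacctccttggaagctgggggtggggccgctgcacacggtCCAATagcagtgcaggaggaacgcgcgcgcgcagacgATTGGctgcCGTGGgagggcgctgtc

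Between the second-set populations, ProNeut libraries held less RNA of this machinery than PreNeut libraries. The 48 genes took 0.696%, 0.683% and 0.650% of the reads on genes with a symbol in PreNeut replicates 1 to 3, and 0.505%, 0.518% and 0.492% in ProNeut. The means were 0.676% ± 0.0234 and 0.505% ± 0.0129 (SD, n = 3 each), and the groups did not overlap. In bulk samples fewer cells of a type and less RNA per cell cannot be told apart. With all 48 genes above 0 reads in every library, 47 passed the low-value filter (log2 CPM above 1 in at least 3 libraries of the set) and were tested. Sec61g, a small subunit of the channel, did not pass it, at -0.02 to 0.84. An adjusted p under 0.05 was reached by 26 of the 47, or 55.3%, all lower in ProNeut, and by 0 in the other direction. At an unadjusted p under 0.05 there were 27 lower and 1 higher, with no share of all genes given at that threshold. Limma with voom weights passed 25 and 0. Over the 8906 genes tested 19.4% passed as lower and 16.9% as higher at an adjusted p under 0.05 in the main fit. The median difference was -0.26 over the 47 genes and -0.02 over all genes tested on the log2 scale, and 42 of the 47 lay below 0. With a minimum difference of 1 log2 unit added, 1 gene remained, Sdf2l1, against 3.93% of all genes lower and 3.62% higher. The groups did not overlap for 28 genes lower and 2 higher in ProNeut, against 25% and 21.5% of all genes.

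**Figure D1:**
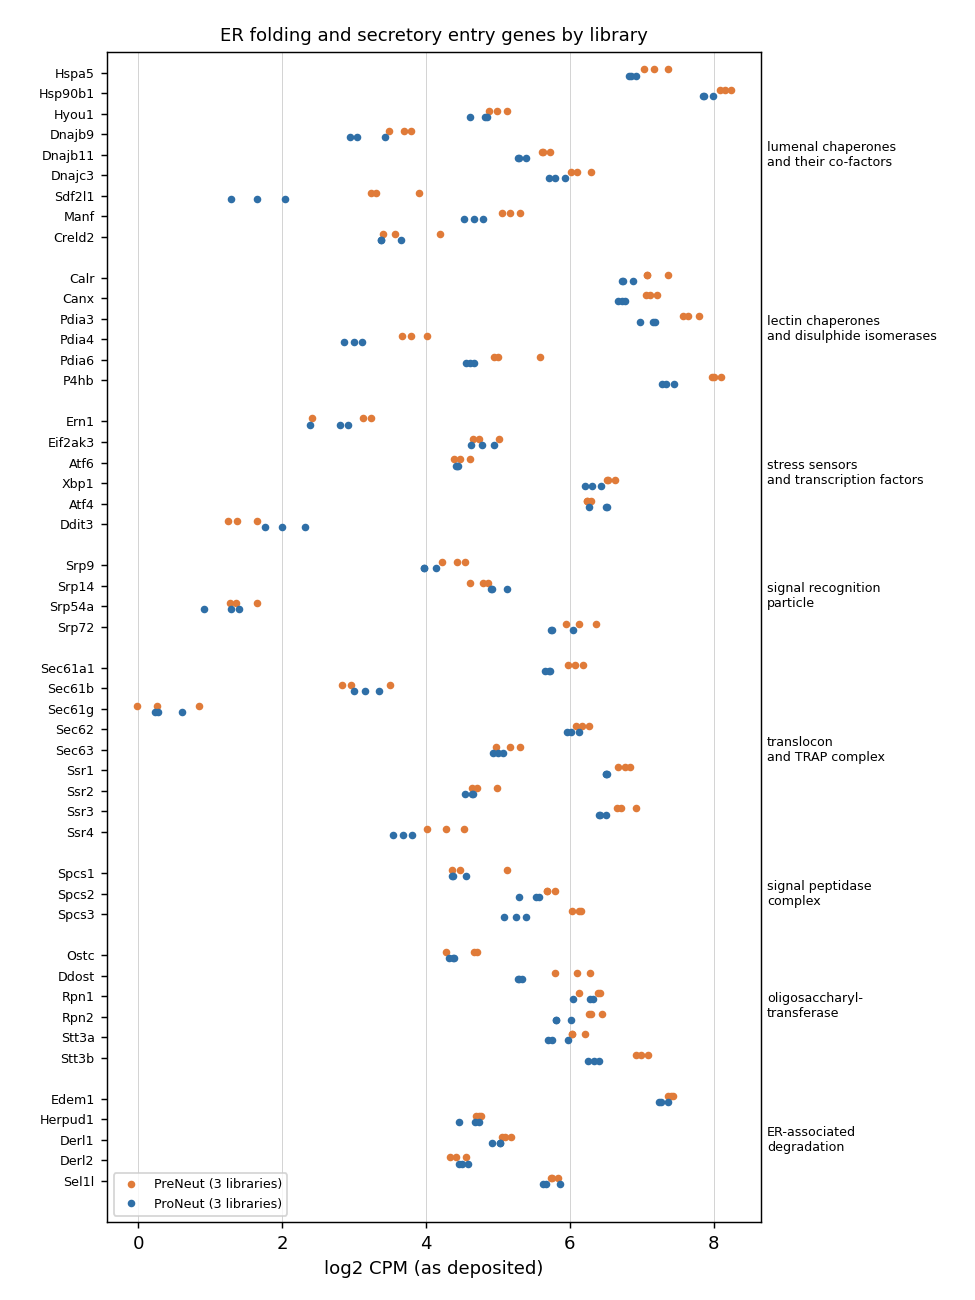
Log2 CPM as deposited (horizontal axis) of the 48 genes, grouped by role, in each of the 3 PreNeut and 3 ProNeut libraries (points). Sdf2l1 lies at 3.23 to 3.91 in PreNeut and 1.29 to 2.04 in ProNeut, the widest gap, and Hsp90b1 and P4hb lie at the high end.

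Of the 9 lumenal chaperones and their co-factors, 7 fell, with a median difference of -0.33. Sdf2l1, a partner of the co-chaperone Dnajb11, had log2 CPM values of 3.91, 3.30 and 3.23 in PreNeut and 1.29, 2.04 and 1.66 in ProNeut. It differed by -1.82 ± 0.24 (SE, n = 3 each; adjusted p 1.2e-06), and every ProNeut library lay more than 1 log2 unit below every PreNeut library. Hsp90b1, which encodes GRP94, read 8.24, 8.15 and 8.08 against 7.99, 7.85 and 7.87, a difference of -0.26 ± 0.08 (adjusted p 0.015). Hspa5 encodes BiP, the central chaperone of the lumen and the regulator of the stress sensors. Its values were 7.36, 7.17 and 7.03 in PreNeut and 6.92, 6.85 and 6.83 in ProNeut, a difference of -0.32 ± 0.09 (adjusted p 0.0061). Both genes had narrow gaps between groups, of the order of the spread within PreNeut. Manf, a small secreted ER protein, fell by 0.52, Dnajb9 (ERdj4) by 0.51 and the co-chaperones Dnajb11 and Dnajc3 by 0.33 each. Hyou1, a nucleotide exchange factor for BiP, differed by -0.24 (adjusted p 0.1) and Creld2 by -0.26 (adjusted p 0.28). Creld2 read 4.20 in PreNeut replicate 1 and 3.37 to 3.66 in the other 5 libraries.

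All 6 lectin chaperones and disulphide isomerases fell, with a median of -0.57 and no overlap of the groups in any of them. Over all genes tested 19.4% fell, and 25% were lower with groups that did not overlap. P4hb, the disulphide isomerase PDI, read 8.10, 7.98 and 8.0 in PreNeut and 7.28, 7.45 and 7.33 in ProNeut, a difference of -0.67 ± 0.08 (adjusted p 4.1e-07). Pdia4 (ERp72) read 4.01, 3.67 and 3.80 against 3.12, 3.0 and 2.87, a difference of -0.83 ± 0.16 (adjusted p 2e-04). All 4 isomerases stood more than 0.5 log2 units lower, Pdia6 at -0.57 ± 0.13 and Pdia3, the partner of the lectin chaperones, at -0.56 ± 0.09. Calr and Canx, which hold glycoproteins until they fold, fell by less. Calr read 7.36, 7.08 and 7.07 against 6.88, 6.74 and 6.73, a difference of -0.39 ± 0.09 (adjusted p 0.0014), and Canx differed by -0.41 ± 0.08. Per kilobase of exon, P4hb had the highest mean level of the 48 genes in PreNeut, 91.2 ± 4.32 CPM per kb, and stood at 57.3 ± 3.39 in ProNeut (SD, n = 3). Hsp90b1 stood at 70.9 ± 3.83 in PreNeut and, above P4hb by less than their SDs, at 59.4 ± 3.18 in ProNeut. Pdia3 followed at 65.0 ± 5.28 and 43.9 ± 3.36, then Calr at 50.3 ± 6.01 and 38.3 ± 2.20.

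Of the 6 sensors and transcription factors of the stress response, 1 passed, Xbp1, and their median difference was -0.04. Xbp1, the factor made active when IRE1 splices its mRNA, read 6.63, 6.52 and 6.54 in PreNeut and 6.31, 6.21 and 6.44 in ProNeut, a difference of -0.24 ± 0.09 (adjusted p 0.034). The table counts reads per gene and does not separate spliced from unspliced Xbp1. Eif2ak3, which encodes PERK, read 4.66, 4.73 and 5.02 against 4.95, 4.63 and 4.78, and its difference was -0.02 ± 0.12 (adjusted p 0.93). Atf6 differed by -0.06 ± 0.12 and Ern1, which encodes IRE1, by -0.22 ± 0.22, and the groups overlapped for both. Atf4, the factor whose translation rises when PERK is active, read 6.24, 6.29 and 6.24 in PreNeut and 6.27, 6.52 and 6.51 in ProNeut, a difference of 0.18 ± 0.09 (adjusted p 0.13). Ddit3, which encodes CHOP, read 1.25, 1.37 and 1.66 against 2.32, 1.77 and 2.0. Its difference of 0.60 ± 0.28 was the largest of the 5 values above 0 and did not pass (adjusted p 0.1), although every ProNeut library lay above every PreNeut library.

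**Figure D2:**
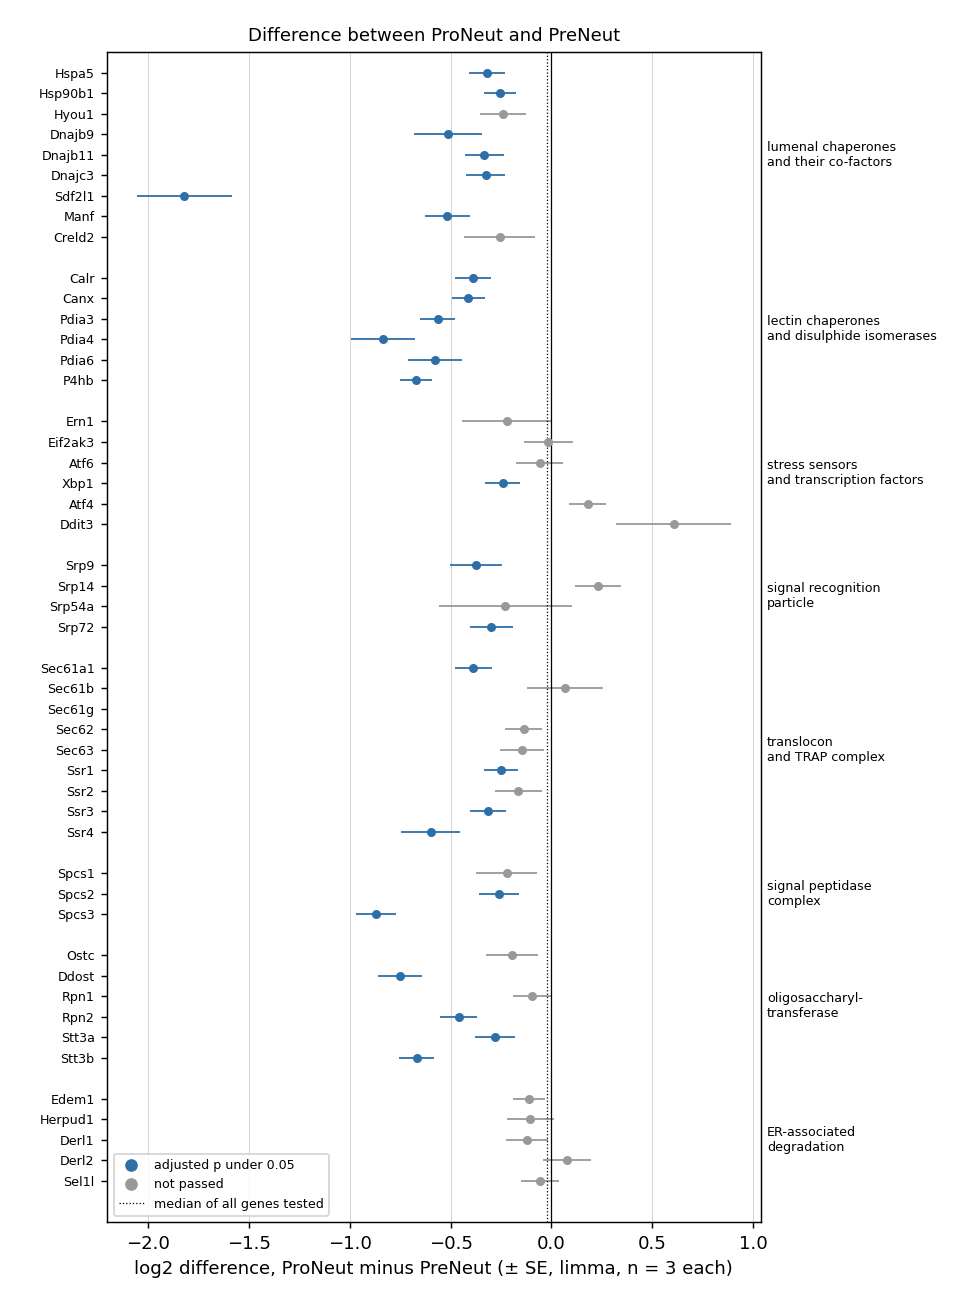
Log2 difference of ProNeut minus PreNeut (horizontal axis) for the 47 genes tested, with standard error bars from limma (n = 3 libraries each) and a vertical line at 0. The 26 genes that passed an adjusted p of 0.05 all lie left of 0, Sdf2l1 farthest at -1.82, while the degradation genes lie between -0.12 and 0.08.

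The entry machinery was lower in part. Of the 4 signal recognition particle genes, Srp9 (-0.37 ± 0.13) and Srp72 (-0.30 ± 0.11) fell, while Srp14 read 4.79, 4.62 and 4.86 in PreNeut and 4.90, 4.92 and 5.13 in ProNeut, a difference of 0.23 ± 0.11 (adjusted p 0.12). Srp54a, the subunit that reads the signal, differed by -0.23 ± 0.33; near-identical copies of it exist, so its count is uncertain. Among the 8 tested genes of the channel and of the TRAP complex that sits beside it, 4 fell, with a median of -0.21. Sec61a1, the pore itself, read 6.19, 5.98 and 6.08 against 5.71, 5.73 and 5.65, a difference of -0.39 ± 0.09 (adjusted p 0.0018). Of the TRAP subunits Ssr4 (-0.60 ± 0.15), Ssr3 (-0.32 ± 0.09) and Ssr1 (-0.25 ± 0.08) fell, and Ssr2 differed by -0.16 ± 0.12. Sec61b (0.07), Sec62 (-0.14) and Sec63 (-0.15) did not pass, and their groups overlapped.

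Signal peptidase and oligosaccharyltransferase each held members with large differences. Spcs3, a subunit of signal peptidase, read 6.13, 6.16 and 6.04 in PreNeut and 5.08, 5.25 and 5.39 in ProNeut, a difference of -0.87 ± 0.10 (adjusted p 1.8e-07), second in size to that of Sdf2l1. Its exons share 75 bases with Asb5 on the opposite strand. Spcs2 differed by -0.26 ± 0.10 and passed, and Spcs1 by -0.22 ± 0.15 and did not. For oligosaccharyltransferase 4 of 6 genes fell, with a median of -0.37. Ddost read 6.10, 5.79 and 6.28 against 5.34, 5.28 and 5.29, a difference of -0.75 ± 0.11 (adjusted p 5.7e-06). Stt3b, the catalytic subunit that works largely after translocation, read 6.99, 6.92 and 7.08 against 6.34, 6.25 and 6.40, a difference of -0.67 ± 0.09. Stt3a, the catalytic subunit that works at the channel, differed by -0.28 ± 0.10 (adjusted p 0.027); the difference between the subunits was not tested. Rpn2 differed by -0.46 ± 0.09, while Rpn1 (-0.09) and Ostc (-0.20) did not pass.

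None of the 5 ER-associated degradation genes passed in limma, and 0 had an unadjusted p under 0.05, although 2 had groups that did not overlap. Over all genes tested 19.4% passed as lower and 16.9% as higher, and the groups did not overlap for 25% lower and 21.5% higher. Counts among 5 genes cannot be told from these shares. Edem1, which marks misfolded glycoproteins for removal, read 7.41, 7.43 and 7.37 in PreNeut and 7.36, 7.27 and 7.24 in ProNeut, a difference of -0.11 ± 0.08 (adjusted p 0.3), which passed only with quantile normalization (-0.21, adjusted p 0.015). Derl1 differed by -0.12, Herpud1 by -0.10, Sel1l by -0.06 and Derl2 by 0.08, with adjusted p of 0.39 to 0.68. These differences spanned -0.12 to 0.08, next to -0.83 to -0.39 for the lectin chaperones and isomerases. Of the 7 genes with an ERSE in the promoter shown above, 6 fell and Creld2 did not pass, next to 26 of the 47 genes and 19.4% of all genes tested. The 47 include these 7 and genes for which no promoter was found. Of the 6, Hspa5, Hsp90b1 and Dnajc3 lost the call without at least 1 library. A link between the element and the fall was not tested. Of the genes with the ERSE-II, Dnajb11 fell (-0.33, adjusted p 0.0082) and Herpud1 did not pass.

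The call rests on the estimate of spread. When all 15 libraries shared 1 estimate of the spread per gene, 0 of the 47 genes passed, and Sdf2l1 kept its difference with an adjusted p of 0.16. Of the 26 genes, 15 passed also without each of the 6 libraries in turn: Dnajb11, Sdf2l1, Manf, Calr, Canx, Pdia3, Pdia4, Pdia6, P4hb, Sec61a1, Ssr4, Spcs3, Ddost, Rpn2 and Stt3b. The other 11, Hspa5, Hsp90b1, Dnajb9, Dnajc3, Xbp1, Srp9, Srp72, Ssr1, Ssr3, Spcs2 and Stt3a, lost the call without at least 1 library. Without PreNeut replicate 1, 17 passed, and Hspa5 then differed by -0.23 (adjusted p 0.075). Without PreNeut replicate 3, the deepest library at 68171606 reads, 21 passed.

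Markers of other cells and of maturation moved between these populations too, and their part in the differences was not tested. Of 6 genes listed as early granule markers, 5 were lower in ProNeut, with a summed level of 347 to 416 CPM against 1306 to 1525 in PreNeut. Cebpe, a transcription factor gene on this list, did not pass and counts in both sums. It stood at 230 ± 13.6 CPM per kb in PreNeut and 237 ± 20.9 in ProNeut (SD, n = 3). Mpo differed by -4.46 and Elane by -5.00. Of 11 granule and surface genes of later neutrophils, 7 were higher, with sums of 99879 to 124987 CPM against 77853 to 99894. Erythroid genes were higher in ProNeut in 4 of 4 tested, with sums of 48.6 to 54.1 CPM against 2.60 to 6.63. Basophil and mast cell genes were lower in 3 of 3, with sums of 2.28 to 2.51 CPM against 27.3 to 31.4. Plasma cells, which carry very high levels of this machinery, were near 0 by their markers in both populations. None of their 6 markers in the table passed the low-value filter, and the sums were 1.04 to 1.07 CPM in ProNeut and 0.996 to 1.54 in PreNeut, with no marker at 0 reads in either population.

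Other genes of the same pathway, from a list of 104 of which 96 were in the table, gave 20 lower and 4 higher among 83 tested, with a median of -0.19. The share lower was near the 19.4% of all genes tested, and the share higher was below their 16.9%. Signal peptidase partners and N-glycan genes had 7 lower of 15, other folding and redox enzymes 4 of 10, other translocation and membrane insertion genes 4 of 15, and ER to Golgi transport 5 of 21, all with 0 higher; the last pair of shares was near that of all genes as well. Other degradation genes had 0 lower and 3 higher of 13, and other stress response genes 0 lower and 1 higher of 9. The called ones were Sec24d, a coat protein of vesicles leaving the ER (-1.52), the oligosaccharyltransferase subunits Tusc3 (-1.5) and Krtcap2 (-1.07), and Sesn2, a stress-induced target of Atf4 (1.74).

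**Figure D3:**
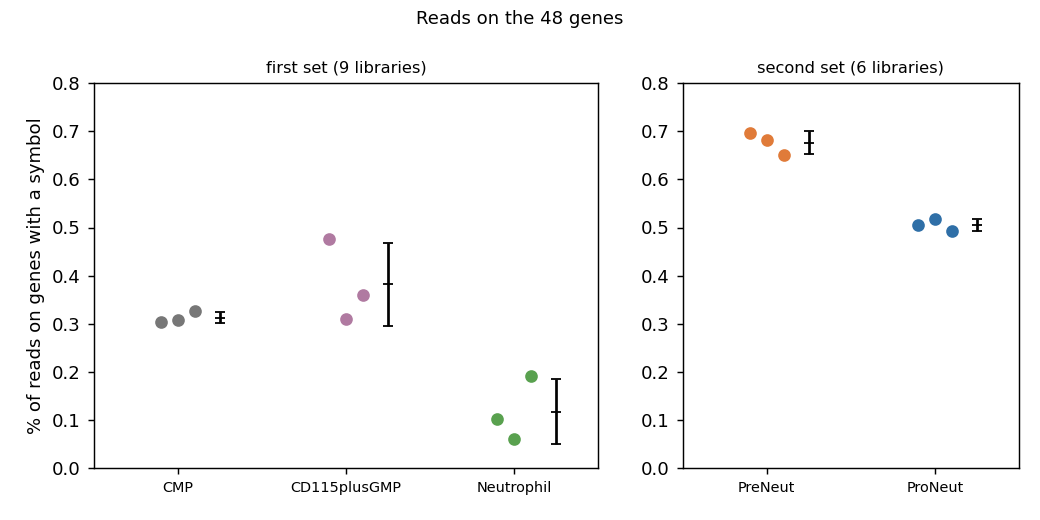
Percent of the reads on genes with a symbol that fell on the 48 genes (vertical axis, from 0), in each library (points) with the mean and SD beside them, first set left and second set right. PreNeut libraries lie at 0.650% to 0.696%, above ProNeut at 0.492% to 0.518%, and Neutrophil libraries lie lowest within the first set at 0.0597% to 0.191%; over all reads, those without a symbol included, the latter are 0.0182% to 0.0698%.

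In the first set the Neutrophil libraries held the smallest share of these loci. The 48 genes took 0.304%, 0.307% and 0.326% of the reads on genes with a symbol in CMP, 0.476%, 0.310% and 0.359% in CD115plusGMP, and 0.102%, 0.0597% and 0.191% in Neutrophil. In this set 55.6% to 69.5% of the reads lay on identifiers without a symbol, against 0.102% to 0.146% in the second set. Over all reads the shares were 0.134% to 0.145% in CMP, 0.118% to 0.189% in CD115plusGMP and 0.0182% to 0.0698% in Neutrophil, and 0.650% to 0.695% in PreNeut and 0.491% to 0.517% in ProNeut. On either base every Neutrophil library lay below every other library of the set, while CMP and CD115plusGMP overlapped. Reads were few: 15 to 17 of the 48 genes had 0 reads in a Neutrophil library, 2 to 4 in a CMP library and 1 to 6 in a CD115plusGMP library. With Srp54a and Sec61g under the filter, 46 genes were tested among 10812. The 3 comparisons of this set share groups, so their counts are not independent.

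Between CD115plusGMP and CMP 1 of the 46 genes was called higher and 0 lower. The called gene was P4hb, with 3.96, 4.90 and 4.91 log2 CPM in CMP and 6.96, 6.42 and 5.86 in CD115plusGMP, or 81 and 170 reads over the 3 libraries. P4hb differed by 1.82 ± 0.45 (adjusted p 0.015). Over all genes 8.62% were called higher and 3.76% lower. At an unadjusted p under 0.05 in limma, 11 of the 46 genes were higher and 0 lower. No share of all genes is given at that threshold, and the called shares are not its background. The call was lost without CMP replicate 1 (1.51), CD115plusGMP replicate 1 (1.55) or CD115plusGMP replicate 2 (1.82), and with plain library totals (1.26, adjusted p 0.11). The largest differences that did not pass, with adjusted p of 0.064 to 0.1, rested on few reads. Derl2 had 12 against 1 reads, a ratio of 20.8 with a 95% counting interval of 3.08 to 889. Sec61b had 10 against 2 reads, a ratio of 8.67 (1.85 to 81.4), and Pdia4 had 39 against 14 reads and a log2 difference of 2.07. The groups did not overlap for 15 genes higher and 2 lower, against 23% and 15.8% of all genes. The median difference was 0.54, against 0.06 over all genes, and -0.02 against -0.49 with plain library totals. Loci of the early granule list also summed higher in CD115plusGMP, 386 to 814 CPM against 3.47 to 11.4. Monocyte and macrophage loci summed to 314 to 548 against 20.1 to 24.3 CPM, with 6 of 8 genes called higher. Erythroid loci summed lower, 9.10 to 22.6 against 419 to 547 CPM. The part of these markers was not tested, and the sums need not be those of the genes' own RNA.

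Between Neutrophil and CD115plusGMP, 15 of the 46 genes were called lower in Neutrophil and 2 higher, or 32.6% and 4.35%, against 15.3% and 23.6% of all genes. All 6 lectin chaperones and disulphide isomerases were among the 15. Calr read 9.44, 8.54 and 8.92 in CD115plusGMP and 6.46, 5.47 and 7.36 in Neutrophil, a difference of -2.54 ± 0.42 (adjusted p 0.00027). Hsp90b1 read 9.21, 8.61 and 8.78 against 6.86, 5.14 and 7.68, a difference of -2.31 ± 0.48. Neutrophil replicate 3 was the highest of its group for both and still lay below CD115plusGMP. Rpn2 had 0 reads in the Neutrophil libraries and 91 in CD115plusGMP, at least 21.2-fold lower at a floor of 3 reads over the group. By the same floor Pdia4 (39 reads in CD115plusGMP) was at least 9.07-fold lower, Sdf2l1 (36 reads) 8.38-fold, Ssr4 (19 reads) 4.42-fold and Ostc (17 reads) 3.96-fold. Rpn2, Pdia4, Sdf2l1, Ssr4 and Ostc passed the low-value filter only through the other groups of the set, and they count among the 15. The others were Pdia6 (-3.38), Manf (-3.06), Ssr3 (-1.78), Rpn1 (-1.65), Canx (-1.39), P4hb (-1.37), Pdia3 (-1.34) and Hspa5 (-1.21). Of these, Hspa5, P4hb, Pdia3, Rpn1 and Ssr3 lost the call without CD115plusGMP replicate 1, with adjusted p of 0.057 to 0.17. P4hb and Ssr3 also lost it without CD115plusGMP replicate 2, Rpn1 without CD115plusGMP replicate 3 or Neutrophil replicate 1, and Pdia3 and Ssr3 without Neutrophil replicate 2. The median difference was -1.12 (-0.90 with the 7 genes at 0 Neutrophil reads set at their bound) against 0.16 over all genes, and -1.92 against -0.65 with plain library totals, where the split was 19 lower and 0 higher. Of the 10812 genes tested, 2635 were then called lower and 1542 higher.

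Between Neutrophil and CMP the split was 9 lower and 5 higher, or 19.6% and 10.9%, against 19.4% and 28.5% of all genes. The share called lower was near that of all genes. Rpn2 was at least 12.2-fold lower (0 against 91 reads), Ssr4 at least 3.49-fold, Srp9 2.55-fold and Sdf2l1 2.15-fold, each with 0 Neutrophil reads. These genes passed the low-value filter only through the other groups of the set, and they count among the 9. Canx read 7.39, 7.58 and 7.76 in CMP and 5.67, 5.90 and 6.97 in Neutrophil, a difference of -1.39 ± 0.36 (adjusted p 0.0054). Calr (-1.38), Hsp90b1 (-1.36), Manf (-2.94; 4 against 65 reads) and Srp72 (-1.75) were the others. Without Neutrophil replicate 2, Calr (-0.90) and Hsp90b1 (-0.65) no longer met the call. Calr also lost it without CMP replicate 3, and Hsp90b1 without CMP replicate 1 or 3. Sdf2l1, Srp9 and Srp72 lost it without any 1 of the CMP libraries. Srp9 also lost it without any 1 of the Neutrophil libraries, and Srp72 without Neutrophil replicate 2 or 3. The count lower was 5 without CMP replicate 1, 4 without CMP replicate 3 and 5 without Neutrophil replicate 2. With plain library totals 26 were lower and 1 higher. Of the 10812 genes tested, 4107 were then called lower and 1753 higher. The median moved from -0.77 (-0.66 with genes at 0 reads set at their bound) to -2.13 while that of all genes moved from 0.19 to -1.18.

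The loci higher in Neutrophil than in CMP were Eif2ak3, Derl2, Ern1, Edem1 and Srp14. Eif2ak3, the PERK gene, had 2, 0 and 4 reads in CMP, 4, 2 and 3 in CD115plusGMP and 13, 16 and 14 in Neutrophil. It was 4.42 ± 0.81 above CMP (adjusted p 4e-04) and 2.69 ± 0.81 above CD115plusGMP (adjusted p 0.016), and the latter lost the call without CD115plusGMP replicate 2 or Neutrophil replicate 2 and with plain library totals (1.88). Its exons share 485 bases with a gene annotated on the opposite strand, Gm43292. Ern1 had 16 against 3 reads, a ratio of 13.2 with a 95% counting interval of 3.79 to 70.9, and Derl2 had 9 against 1, a ratio of 22.4 (3.10 to 980). Both ratios use the library size implied by the deposited values. With plain library totals Ern1 differed by 1.10 and Derl2 by 1.69 log2 units (limma, adjusted p 0.4 and 0.17). Both genes lost the call without CMP replicate 1 or 2, or Neutrophil replicate 1. Ern1 also lost it without CMP replicate 3 or Neutrophil replicate 3, and Derl2 without Neutrophil replicate 2. Edem1 differed by 2.40 and lost the call without CMP replicate 2 (1.80) or CMP replicate 3 (2.29), or Neutrophil replicate 3 (1.93). Srp14 differed by 1.23 from CMP and by 1.25 from CD115plusGMP, by -0.13 and 0.44 with plain library totals, and by 0.04 and 0.14 with quantile normalization. Against CMP it lost the call without any 1 of the CMP libraries or Neutrophil replicate 1. Against CD115plusGMP it lost the call without CD115plusGMP replicate 2 or 3, or Neutrophil replicate 1. The count higher than CMP was 2 without any 1 CMP library, and 3 without Neutrophil replicate 1 or replicate 3. These values cover few reads, and of the 48 genes 15 share at least 50 exon bases with a gene on the opposite strand, Rpn2 (Mroh8, 242 bases), Manf (166) and Derl2 (Mis12, 231) among them.

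Markers of other cells moved between Neutrophil and the progenitors as well. The 11 neutrophil granule and surface genes were all higher in Neutrophil than in CMP and CD115plusGMP, with summed levels of 11185 to 38499 CPM against 35.0 to 39.4 and 28.2 to 79.3. Genes of the early granule list summed to 61.3 to 195 CPM in Neutrophil, and 5 of 6 were lower and 1 higher there than in CD115plusGMP. Monocyte and macrophage genes summed to 15.3 to 152 CPM in Neutrophil against 314 to 548 in CD115plusGMP, with 5 of 8 called lower. B lymphoid genes summed to 43.3 to 88.8 CPM in Neutrophil against 1.88 to 3.90 in CD115plusGMP and 0.947 to 6.44 in CMP, with the 1 gene tested called higher. Of the 8 B lymphoid genes listed, 4 were in the table, and 2 of these had 0 reads in every Neutrophil library. Erythroid genes summed to 0 to 9.61 CPM in Neutrophil against 419 to 547 in CMP, with 8 of 9 called lower. The part of all these markers in the differences of the 48 genes was not tested, and the sums need not be those of the genes' own RNA.

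Across the 5 populations the median of the gene means was 3.68 log2 CPM in CMP, 3.85 in CD115plusGMP, 3.05 in Neutrophil, 5.42 in PreNeut and 5.12 in ProNeut. The median rank among all genes of a library was at percentile 75.9, 77.1, 59.4, 85.0 and 82.1 in the same order. In Neutrophil 9 of the 48 genes had 0 reads in every library. Ddit3 stood against this order, at 6.74 to 8.11 log2 CPM in the 9 first-set libraries and 1.25 to 2.32 in the 6 of the second set. It shares 68 exon bases with Mars, the gene on the opposite strand beside it, which read 6.37 ± 0.09 in CMP, 5.71 ± 0.15 in CD115plusGMP and 8.49 ± 0.36 in Neutrophil, and 4.66 ± 0.13 in PreNeut and 4.23 ± 0.06 in ProNeut (SD, n = 3). Set and population cannot be told apart in these values.

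**Figure D4:**
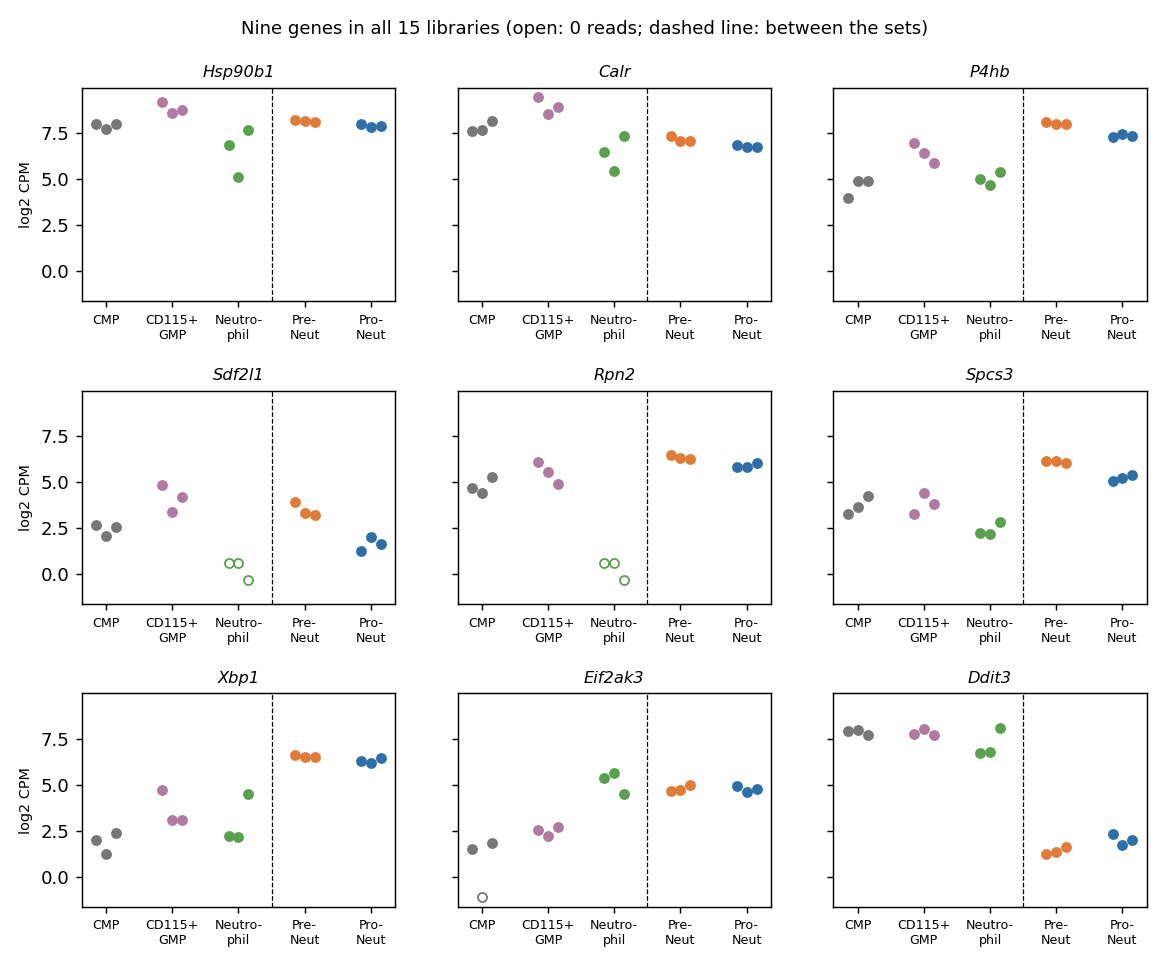
Log2 CPM as deposited (vertical axis) of 9 of the genes in all 15 libraries by population, with the first set left and the second set right of the dashed line; open points had 0 reads. Rpn2 and Sdf2l1 had 0 reads in every Neutrophil library, Eif2ak3 lies at 4.54 to 5.66 in Neutrophil and at -1.08 to 1.86 in CMP, and Ddit3 lies higher in the first set than in the second.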

How the data were processed

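RNA was sequenced from 15 libraries (5 populations, 3 each) made with the Universal Plus mRNA-Seq kit, per the labels. The authors deposited 1 table of log2 CPM values. FastQC 0.11.7, featureCounts 1.22.2 and edgeR 1.30.5 with the GRCm38 (mm10) build are named per the submitters' processing notes; the sources used here give no aligner, annotation or strand setting. Every deposited log2 value equals a whole number of reads plus 0.5, scaled (100% of values, tolerance 0.001 reads), so reads could be recovered; totals ran from 810794 to 68171606, and counting intervals and floors cover counting error only. Chi-square per degree of freedom between replicates was 2.10 to 24.4, so no pair counted as 1 library.

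Groups came from the labels. Within each set, group means were fitted with limma 3.58.1 (R 4.3.3; eBayes with trend, Benjamini-Hochberg over all genes tested, two-sided) on genes with log2 CPM above 1 in at least 3 libraries of the set. Called means an adjusted p under 0.05 and a log2 difference of at least 1; passed, fell or rose means the adjusted p alone. An exact permutation test of 3 against 3 cannot go below 0.1, so none is given. The code was tested on simulated data. Ratios and at-least folds use reads scaled to the library size implied by the deposited values, not to the read totals, with a floor of 3 reads. Exons came from GENCODE M21 and matched all 48 genes; promoters came from RefSeq. The 48 genes and all other lists were chosen with earlier results of these data known. Named genes are called members (up to 24), the largest differences up to 4 where fewer were called, the highest member of each role, and up to 4 called genes of the other ER list; Mars was added after its values were seen. The plan to read C-terminal residues was dropped for lack of protein sequences.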

Additional observations from a re-analysis of the deposited data

How the results depend on the processing

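Precision is limited in the first set, where many of the 48 genes have under 10 reads. For ProNeut against PreNeut the count lower at any size was 26 and 17 to 26 with 1 library left out; it was 0 with all 15 libraries in one fit, where the spread is shared with the first set. The count higher at any size was 0, with 2 under median centring (Atf4 and Srp14) and 0 to 1 with 1 library left out. The called count lower was 1, with 0 in the fit of all 15 libraries and 26 with no minimum difference, and 40 of the genes lay below 0 in every setting. For CD115plusGMP against CMP the called count higher was 1, with 8 in the fit of 15 libraries, 6 with quantile normalization, 0 with plain library totals, 4 with voom weights and 0 to 2 with 1 library left out. For Neutrophil against CMP the count higher was 5, with 8 in the fit of 15 libraries, 2 with median centring, 3 with quantile normalization, 1 with plain library totals, 3 with log2(CPM + 1) and 2 to 5 with 1 library left out. The count lower was 9, with 14, 17, 21 and 26 under the first 4 of these and 4 to 13 with 1 library left out. Over all genes tested the count lower was 2100, with 2445, 2696, 2610 and 4107 under the same 4 settings. For Neutrophil against CD115plusGMP the count higher was 2, with 1 without the filter, with median centring, quantile normalization and voom weights, 0 with plain library totals and 0 to 2 with 1 library left out; the count lower stayed within 1.5 times of 15 in every setting. Srp14 against CMP reversed to -0.13 with plain library totals. Plain library totals replace the implied library size with the reads counted, which moves all genes of a comparison by the same amount. That size was 0.254 to 0.445 times the reads in Neutrophil, 0.570 to 0.648 in CD115plusGMP and 0.861 to 0.908 in CMP. The cause of the other shifts was not tested.

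Replicate numbers are shared between groups, but same-numbered libraries did not deviate together (correlations of -0.031 to 0.0766), so they share only a number. With the replicate block the count lower in ProNeut was 26, the count higher in Neutrophil than CMP 3, and that against CD115plusGMP 1. The counts of genes passing at any size under these settings were chosen after seeing the data, except that of the fit as planned.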
